A study of Mus musculus with 18 samples.

Results

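The 10 genes described here are the Notch receptors Notch1, Notch2 and Notch3, the ligands Dll1, Jag1 and Jag2, and the target genes Hes1, Hes5, Hey1 and Hey2, measured in cultured mouse astrocytes kept alone or with neurons. They were chosen by symbol, through the Entrez identifiers of the deposited count table, and all 10 of 10 were found among its 26301 genes. Their identifiers are 18128 (Notch1), 18129 (Notch2), 18131 (Notch3), 13388 (Dll1), 16449 (Jag1), 16450 (Jag2), 15205 (Hes1), 15208 (Hes5), 15213 (Hey1) and 15214 (Hey2). All 10 passed the filter on low counts and were tested, as were 16539 genes in all.

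Astrocytes came from the cortex of newborn (P0) mice, were expanded in DMEM with serum, and were moved to N2 medium at confluence. In 3 groups they stayed alone for 2, 4 or 7 days. In the 3 co-culture groups they received P0 hippocampal neurons from TdTomato+ mice and were collected on the same days, and cells were sorted by TdTomato fluorescence with gates for negative cells set on control astrocytes. Strain and sex are not given, and no genetic change or further agent is named for the astrocytes of either culture. Each group has 3 libraries, numbered as replicates 1 to 3, and the 6 libraries of one number carry one date in the labels. The title poses the question of which astrocyte transcripts neuronal contact regulates. Nothing in the labels says that replicates come from separate litters or animals. The p-values therefore describe variation among these dishes, which may be technical.

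Notch receptors sit in the cell membrane and are bound by Delta-like and Jagged proteins on neighbouring cells. Binding lets ADAM proteases and then gamma-secretase cut the receptor, and the freed intracellular part joins the DNA-binding protein Rbpj to switch on genes of the Hes and Hey families. These encode repressors, and in the developing brain the pathway holds neural precursors back from becoming neurons and favours astrocytes.

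A known Rbpj recognition sequence contains the letters TGGGAA, so the 250 bases before each RefSeq gene start (build GRCm38.p6) were searched for TGGGAA and its reverse complement TTCCCA, on both strands. A window was found for 8 of the 10 genes, with Hes1 and Hey1 not among them, and Dll1 has 2 windows. Matches occurred only in the windows of the target genes Hes5 and Hey2, which are shown as the only 2 of the 8 genes with a match. Capitals mark the matches, at 226 and 82 bases before the Hes5 start and 207 bases before the Hey2 start. Each sequence is written 5′ to 3′ on the strand of its gene, Hes5 from the plus strand at chr4:154960673-154960922 and Hey2 from the minus strand at chr10:30842784-30843033.
Hes5 promoter: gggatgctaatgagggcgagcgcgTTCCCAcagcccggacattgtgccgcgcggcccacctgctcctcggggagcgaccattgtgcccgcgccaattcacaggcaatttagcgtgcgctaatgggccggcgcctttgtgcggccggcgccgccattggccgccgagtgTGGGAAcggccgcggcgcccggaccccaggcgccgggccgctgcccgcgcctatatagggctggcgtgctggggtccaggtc
Hey2 promoter: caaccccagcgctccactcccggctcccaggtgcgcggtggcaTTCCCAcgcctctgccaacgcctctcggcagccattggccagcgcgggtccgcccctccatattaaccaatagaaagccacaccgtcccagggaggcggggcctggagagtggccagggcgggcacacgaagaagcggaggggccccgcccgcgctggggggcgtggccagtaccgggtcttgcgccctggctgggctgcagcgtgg
Of all 32851 windows of this length, 21.6% hold at least 1 match and 2.77% hold 2 or more. A match is a description of these letters and no evidence of binding in these cells. Both genes had low levels here.

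Total counts ran from 13950111 to 32623556 reads in 16 of the 18 libraries. The other 2, both of replicate 1, stood apart. One, from astrocytes alone on day 2, held 3242459 reads with 92.5% of them on 1 gene, and one, from co-culture on day 7, held 8966485 with 40.5% on 1 gene. Levels are given as CPM, counts per 1000000 reads of the library after TMM scaling of the library sizes. The detection floor of 3 reads equals 20.2 CPM for the first of these libraries, 0.504 CPM for the second and between 0.0743 and 0.179 CPM elsewhere. Intervals and floors cover counting error only. In addition, 30 genes, none of them among the 10, lacked reads in all 6 libraries of replicate 2 and in 2 of replicate 3 (alone on day 2, co-culture on day 7). They had reads in each of the 8 libraries left when the smallest 2 are set aside. Of 9 astrocyte markers, 8 or 9 had reads in every library, with a summed level of 870.1 to 5489 CPM in the 16 larger libraries. The 10 neuron markers summed to 41.2 to 306 CPM there, and 4 to 10 of them had reads. In bulk RNA, fewer cells of a type and less RNA per cell cannot be told apart.

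Per kilobase of exon, which allows genes to be compared, the receptors Notch2 and Notch1 led. Over the 16 larger libraries the median level was 64.6 CPM per kb for Notch2 and 30.5 for Notch1, followed by the ligand Jag1 at 22.9 and the receptor Notch3 at 17.7. The targets Hey1 and Hes1 came next at 15.5 and 11.8 CPM per kb. The ligands Dll1 and Jag2 were far lower, at 1.36 and 0.899 CPM per kb, and Hey2 and Hes5 were lowest at 0.536 and 0.0746.
Notch2 exceeded Notch1 in 16 of 16 libraries, Notch1 exceeded Jag1 in 15 and Hes1 exceeded Dll1 in 16. Jag1, Notch3, Hey1 and Hes1 had no settled order: Jag1 exceeded Notch3 in 10 of 16 libraries, Notch3 exceeded Hey1 in 9, and Hey1 exceeded Hes1 in 8. Ranges of all neighbours in the order overlapped. Lengths are exon unions of GENCODE M21 on GRCm38, whereas the reads were counted on mm9, so the levels per kilobase are approximate. Annotated genes overlap the exons or introns of Notch1, Notch2, Notch3, Dll1 and Hes5, and reads shared with them cannot be told apart since strand use in counting is not given.

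**Figure D1:**
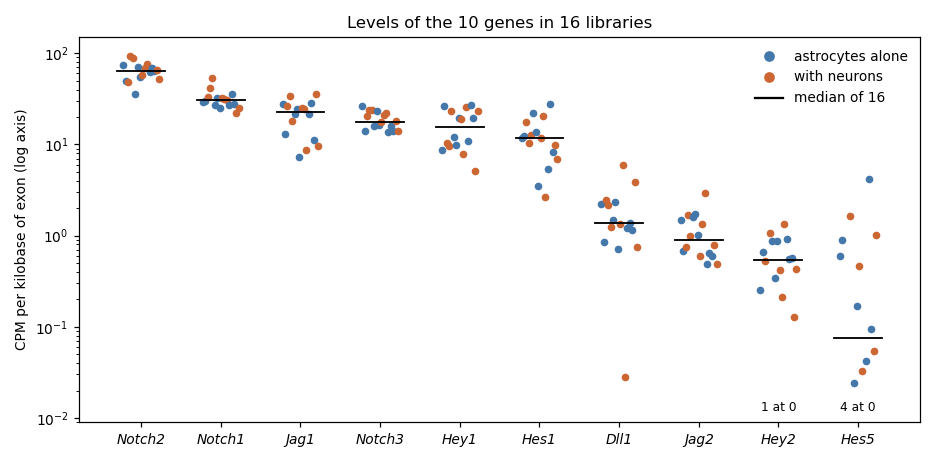
Level of each gene per kilobase of exon (CPM per kb, log axis) in each of the 16 larger libraries, ordered by the median. Libraries without a read of a gene are given as a number. Notch2 (64.6) and Notch1 (30.5) lead, Jag1, Notch3, Hey1 and Hes1 lie between 22.9 and 11.8, and Dll1, Jag2, Hey2 and Hes5 lie at 1.36 or less.

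None of the 10 genes was called different between co-culture and astrocytes alone on day 2, 4 or 7 or on average over the days, and none between day 7 and day 2 in either kind of culture (edgeR quasi-likelihood F test, Benjamini-Hochberg adjusted p under 0.05). The background was 0% in each of these comparisons, since no gene of the 16539 was called. At an unadjusted p under 0.05 the co-culture comparisons held 1 of the 10 on day 2 (Notch1), 0 on day 4, 1 on day 7 (Jag2) and 1 on average (Jag2), against 2.35%, 0.369%, 9.37% and 4.17% of all tested genes. DESeq2 called 0 of the 10 in any of these comparisons. Of all tested genes it called 0.133% on day 2, 0% on day 4, 0.0302% on day 7, 0% on average, 0.0181% over time alone and 1.50% over time in co-culture. Fitted values were above 0 for 7 of the 10 on day 2 with a median log2 fold change of 0.27, against 0.04 over all tested genes, for 8 on day 4 with a median of 0.16 and for 5 on day 7 with a median of −0.12. On simulated counts the same procedure recovered 0 of 50 genes changed 2-fold and 20 of 50 changed 4-fold for day 2, and 0 and 17 of 50 for day 7. The changed genes were drawn from those with mean counts above 50, and the simulated libraries had no date effect. These rates need not hold for each of the 10 genes, whose SE on day 2 ran from 0.28 (Notch3) to 2.14 (Hes5).

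Notch1, a receptor found on many neural cells, stood higher with neurons on day 2 and lower with neurons on day 7, without passing the test on either day. On day 2 it stood at 235, 418 and 427 CPM in replicates 1, 2 and 3 of astrocytes alone and at 467, 593 and 772 CPM in co-culture. The 3 co-culture libraries were all above the 3 alone, although the lowest value comes from the smallest library, where 35 reads give a 95% Poisson interval of 164 to 327 CPM. The means were 360.2 ± 108 CPM and 611 ± 153 CPM (SD, n = 3), a log2 fold change of 0.74 (SE 0.30, edgeR quasi-likelihood F test, unadjusted p = 0.0240, adjusted p = 1).
Without the 2 smallest libraries it was 0.53. Of the 10 genes Notch1 alone had co-culture libraries all above those alone on day 2, a separation that 3.26% of all tested genes showed.

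On day 4 Notch1 measured 382, 461 and 354 CPM alone and 459, 453 and 441 CPM in co-culture, and the groups overlapped. The co-culture values were close together, with a mean of 451 ± 9.47 CPM (SD, n = 3). Day 7 had the reverse of the day 2 order, with 382, 507 and 398 CPM alone and 332, 316 and 361 CPM in co-culture. Every co-culture library lay below every library alone on that day, which held for 1 of the 10 genes and for 5.58% of all tested genes. The difference itself was −0.35 on the log2 scale (SE 0.30, edgeR unadjusted p = 0.256, adjusted p = 0.778).

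In co-culture Notch1 was lower on day 7 than on day 2 in every library, at a log2 difference of −0.86 (SE 0.30, edgeR unadjusted p = 0.0103, adjusted p = 0.281), whereas astrocytes alone gave 0.23 (SE 0.30). The co-culture effect on day 7 minus that on day 2 was −1.10 (SE 0.43, edgeR unadjusted p = 0.0188, adjusted p = 0.891). At an unadjusted p under 0.05, Notch1 and Jag2 were 2 of the 10 in both comparisons, against 13.2% of all tested genes for day 7 with day 2 in co-culture and 5.47% for the difference between days. In astrocytes alone 0 of the 10 passed that level, against 1.11%.
Without the 2 smallest libraries the last 2 Notch1 values were −0.85 in co-culture and −0.91 for the difference between days. Neuron markers summed to 117 to 277 CPM in the day 2 co-cultures and 61.5 to 138 CPM in those of day 7, against 129 to 202 CPM and 84.3 to 155 CPM alone. The ranges of the summed markers overlapped between cultures on both days. Single markers ran in different directions on day 2: Dcx, made by young neurons, had 0, 1 and 0 reads alone and 45, 172 and 58 in co-culture, whereas the neurofilament Nefm had 1, 10 and 4 alone and 0 in each co-culture. On day 7 both had reads in replicate 2 of the co-culture (126 and 51) and none in the other co-cultures. The part of neuronal RNA in the Notch1 values was not tested.

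**Figure D2:**
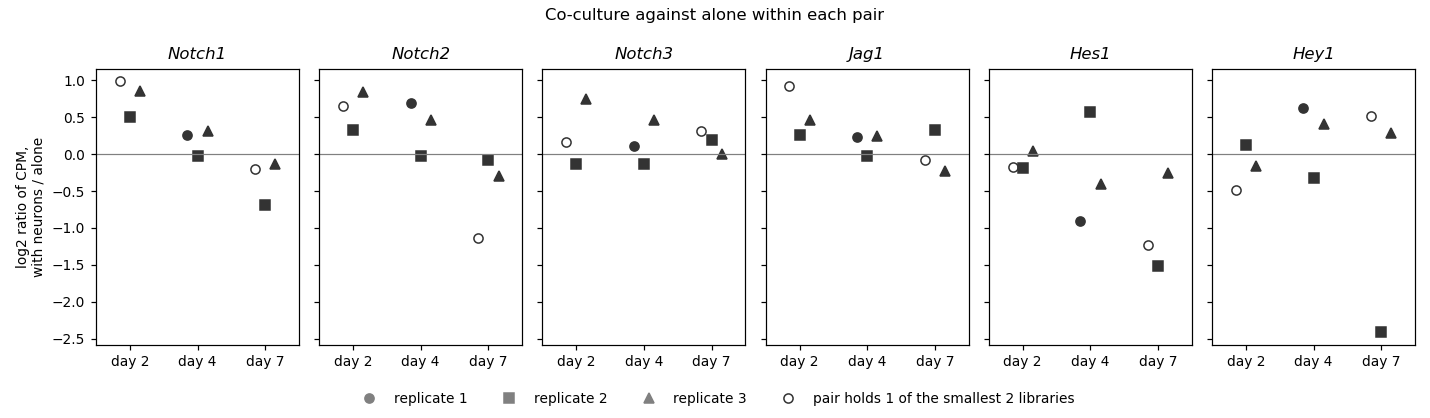
Log2 ratio of co-culture to astrocytes alone for Notch1, Notch2, Notch3, Jag1, Hes1 and Hey1 in each pair of libraries with the same replicate number and day. Open symbols are pairs that hold one of the smallest 2 libraries. The 3 Notch1 ratios and the 3 Notch2 ratios lie above 0 on day 2 and below 0 on day 7.

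The pairs with one date showed the same order for Notch1 and for Notch2, the most abundant of the receptors. Notch1 had log2 ratios of 0.99, 0.50 and 0.85 on day 2 and of −0.20, −0.68 and −0.14 on day 7 in replicates 1, 2 and 3. Notch2 gave 0.65, 0.32 and 0.84 on day 2 and −1.13, −0.08 and −0.30 on day 7. Being higher in all 3 pairs on day 2 and lower in all 3 on day 7 was found for these 2 of the 10 genes and for 2.45% of all tested genes.

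For Notch2 the groups overlapped on every day. On day 2 it stood at 329, 802 and 530.2 CPM alone and at 518, 1003 and 952 CPM in co-culture. The lowest of these, in the smallest library, rests on 49 reads with a 95% Poisson interval of 244 to 436 CPM. On day 4 it was 389.8, 755 and 593 CPM alone and 629, 744 and 819 CPM in co-culture, higher with neurons in 2 of 3 pairs.
Day 7 gave 666, 741 and 689 CPM alone, the tightest of the Notch2 groups, and 304, 703 and 561 CPM in co-culture, where the lowest value belongs to the library of 8966485 reads. Log2 fold changes were 0.56 (SE 0.40) on day 2 and −0.42 (SE 0.40) on day 7. The difference between them was −0.98 (SE 0.56, edgeR unadjusted p = 0.0974, adjusted p = 0.919). Without the 2 smallest libraries these 3 values were 0.30, −0.19 and −0.49.

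Notch3, a receptor best known from the mural cells of blood vessels, overlapped between cultures on every day. Alone it measured 148, 211 and 114 CPM on day 2, 130.5, 187 and 131 CPM on day 4, and 109, 128 and 114 CPM on day 7. In co-culture it measured 165, 194 and 192 CPM, then 141, 171 and 179.9 CPM, then 135 (replicate 1), 146 and 114 CPM. Co-culture was higher in 6 of 9 pairs, with an average log2 fold change of 0.17 (SE 0.16).
Within co-culture every day 7 library lay below every day 2 library, at a log2 difference of −0.48 (SE 0.28, edgeR unadjusted p = 0.102). Astrocytes alone gave a similar −0.44 (SE 0.28), with overlapping groups. The co-culture effect on Notch3 on day 7 minus that on day 2 was −0.04 (SE 0.40). Of the 10 genes, 3 were separated with day 7 below day 2 in co-culture, namely Notch1, Notch3 and Hes1, against 5.42% of all tested genes. In astrocytes alone only Jag2 was, against 2.58%. Mural cell markers, of which 3 to 6 of 7 had reads in each library, summed to 257 to 1226 CPM in the day 2 co-cultures and 41.7 to 199 CPM in those of day 7. In astrocytes alone they summed to 346 to 490 CPM on day 2 and 123 to 399.5 CPM on day 7. Kcnj8 had no read in any library and Vtn at most 5. Their part in the Notch3 values was not tested.

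**Figure D3:**
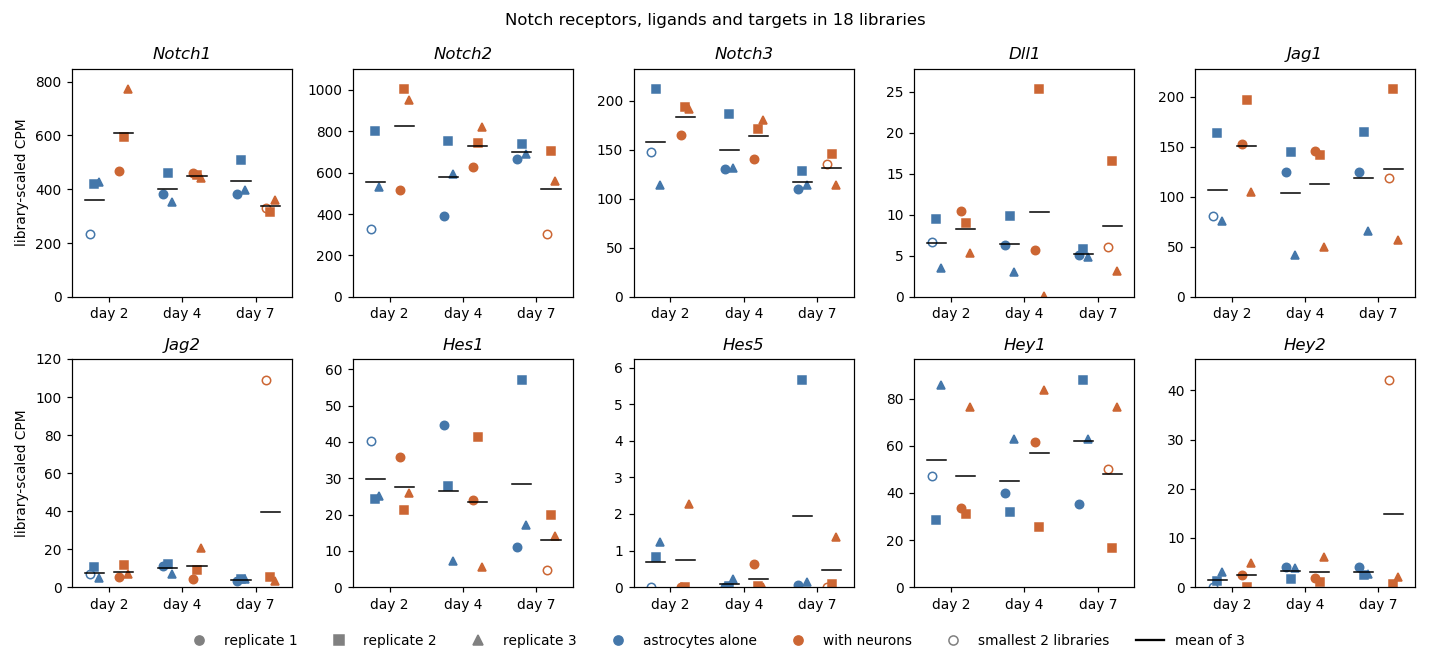
Level of each of the 10 genes (CPM after TMM scaling, linear axis) in every library by day, alone and in co-culture, with open symbols for the 2 smallest libraries. Notch1 in co-culture lies above the astrocytes alone on day 2 (467 to 772 against 235 to 427 CPM) and below them on day 7 (316 to 361 against 382 to 507 CPM).

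Among the ligands, Jag1, which signals to Notch receptors on neighbouring cells, was the abundant one. On day 2 it stood at 80.7, 164 and 75.7 CPM alone and at 153, 197 and 105 CPM in co-culture, higher with neurons in each pair while the groups overlapped. The log2 fold change was 0.47 (SE 0.55), and over the 3 days it averaged 0.23 (SE 0.31). Leaving out single libraries or replicates moved the first from 0.22 to 0.92 (without replicate 2 of the co-culture or of the astrocytes alone on that day) and the second from 0.0155 to 0.36. Without the 2 smallest libraries the day 2 fold change was 0.34. Day 4 gave 124, 144 and 42.2 CPM alone and 146, 142 and 50.2 CPM in co-culture. Day 7 gave 125, 165 and 66.0 CPM alone and 119, 208 and 56.5 CPM in co-culture. In all of these groups replicate 3 was the lowest library and, except in co-culture on day 4, replicate 2 was the highest.

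Dll1, a Delta-like ligand, was low and scattered. Alone it ranged from 3.03 to 9.80 CPM over the 9 libraries. In co-culture it was 10.4, 9.04 and 5.27 CPM on day 2, 5.71, 25.3 and 0.119 CPM on day 4, and 6.05, 16.5 and 3.18 CPM on day 7. The day 4 co-cultures thus spanned 564 reads in replicate 2 and 2 reads in replicate 3. The average log2 fold change was 0.58 (SE 0.58) and, without replicate 2, −0.03.

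Jag2, the other Jagged ligand, had the largest fitted fold change on day 7, and 1 library carried it. It measured 3.37, 4.44 and 4.13 CPM alone, and 109, 5.55 and 3.41 CPM in co-culture. The value of 109 CPM rests on 649 reads (95% Poisson interval 101 to 118 CPM) in that library of 8966485 reads. Log2 fold change was 3.30 (SE 0.97, edgeR unadjusted p = 0.0030, adjusted p = 0.468) with all libraries and 0.12 without the 2 smallest libraries.
Elsewhere Jag2 ranged from 4.16 to 20.4 CPM on days 2 and 4. In astrocytes alone each day 7 library lay below each day 2 library (6.72, 10.5 and 4.68 CPM), where the first of these is a single read. The same library of the day 7 co-culture was also the highest for the target Hey2, at 42.2 CPM from 251 reads, for the receptor Notch4 at 24.0 CPM and for the Hes family gene Hes6 at 128 CPM. These 2 pathway genes were picked out after their values were seen. In that library neuron markers summed to 61.5 CPM (3 of 10 with reads), endothelial markers to 2.35 CPM (2 of 7), mural markers to 41.7 CPM (5 of 7), microglia and macrophage markers to 114 CPM (7 of 10) and oligodendrocyte lineage markers to 140.2 CPM (5 of 8). Their part in these values was not tested.

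Of the targets, Hes1, a repressor switched on by Notch in many tissues, was nominally lower with neurons in 7 of 9 pairs, without passing the test. The share of all tested genes lower in as many pairs was not counted. On day 2 Hes1 stood at 40.3, 24.2 and 25.1 CPM alone and 35.7, 21.3 and 25.9 CPM in co-culture. The 40.3 CPM rests on 6 reads in the smallest library, with a Poisson interval of 14.8 to 87.8 CPM at the level used above. This interval includes the 35.7 CPM of its co-culture partner, so the direction of that pair, counted as lower, is not settled. On day 4 the values were 44.7, 27.9 and 7.15 CPM alone and 23.9, 41.4 and 5.43 CPM in co-culture. Both days thus showed overlapping groups.
Day 7 gave 11.04, 57.1 and 17.0 CPM alone and 4.71, 19.97 and 14.2 CPM in co-culture, lower in each pair. The log2 fold change on day 7 was −1.12 (SE 0.73, edgeR unadjusted p = 0.145, adjusted p = 0.672), and the average over the days was −0.43 (SE 0.43). These rested largely on 1 library: without replicate 2 of astrocytes alone on day 7 they were −0.10 and −0.0959. In co-culture, day 7 was below day 2 in every library, at a log2 difference of −1.08 (SE 0.73), with the lowest value, 4.71 CPM, resting on 28 reads, and −0.46 without replicate 1.

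Hey1, a repressor related to Hes1, ranged from 28.7 to 88.0 CPM alone and from 16.5 to 83.6 CPM in co-culture, was higher with neurons in 5 of 9 pairs, and had an average log2 fold change of −0.09 (SE 0.33). Its widest pair was replicate 2 on day 7, at 88.0 CPM alone against 16.5 CPM beside neurons. Over the 16 larger libraries the log2 levels of Hes1 and Hey1 correlated at Pearson r = −0.23, which describes libraries that share dates.

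The targets Hes5 and Hey2 had the lowest levels of the 10. Hes5, a main Notch target of neural precursors, had 296 reads over all libraries and none in 6 of 18, and its highest library was replicate 2 of astrocytes alone at day 7 with 5.67 CPM from 106 reads. Of its 9 pairs 4 were nominally higher and 4 lower with neurons, and both libraries of the remaining pair had no read. These counts include pairs below the floor of 3 reads. Replicate 2 on day 4, counted as higher, had 1 read in each library. Replicate 1 on day 7, counted as lower, had 1 read alone and 0 in co-culture. Both libraries exceeded the floor only in replicate 3 on days 2 and 7, at log2 ratios of 0.87 and 3.41. Hey2 had a median of 2.46 CPM over the 16 larger libraries, above the detection floor there, reached at most 6.20 CPM outside the library of 42.2 CPM, and its day 7 log2 fold change of 2.26 (SE 1.37) turned to −1.30 without the 2 smallest libraries.

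Jag1 differed between replicate numbers, each of which stands for 1 date in the labels. It had a lowest, median and highest value of 80.7, 125 and 153 CPM over the 6 libraries of replicate 1, 142, 164 and 208 CPM in replicate 2 and 42.2, 61.3 and 105 CPM in replicate 3. The 80.7 CPM rests on 12 reads in the smallest library. All 6 libraries of replicate 3 lay below all 6 of replicate 2, and the share of all tested genes with this separation was not counted. Jag1 in replicate 3 was lower than in replicate 2 by a log2 fold change of −1.40, and the 3 dates differed (edgeR quasi-likelihood F test with culture and day in the model, adjusted p = 0.00164, and 0.000267 without the 2 smallest libraries).
This test was chosen after the values were seen. It called 1 of the 10 genes with all libraries, against 5.76% of all tested genes, and 2 without the 2 smallest libraries, against 8.93%. The second was Hey1, with an adjusted p of 0.0695 and then 0.0330 by edgeR. Hey1 ran the other way from Jag1, at 33.6 to 61.5 CPM in replicate 1, 16.5 to 88.0 CPM in replicate 2 and 63.0 to 85.7 CPM in replicate 3, a log2 fold change of 1.14 between replicates 3 and 2.

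Dll1 followed the order of Jag1 without passing the test, with medians of 6.19, 9.63 and 3.37 CPM in replicates 1, 2 and 3. Cell markers were also summed by date, without a test. The mural ranges overlapped between all dates. For astrocyte markers replicate 3 lay above both others, and for microglia and macrophage markers it lay below replicate 2. Astrocyte markers summed to 477 to 1900 CPM in replicate 1, 1807 to 2358 CPM in replicate 2 and 3905 to 5489 CPM in replicate 3. Microglia and macrophage markers summed to 2.90 to 114 CPM, 91.4 to 405 CPM and 2.66 to 13.2 CPM, and mural markers to 41.7 to 1226 CPM, 139 to 496 CPM and 155 to 346 CPM, in the same order. Their part in the Jag1 and Hey1 levels was not tested. Replicate 3 held 2 libraries without reads of the 30 genes mentioned above, as did all of replicate 2, and Jag1 in those 2 was 75.7 and 56.5 CPM, within the range of the other 4. Whether this gap has a part in the Jag1 levels was not tested.

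**Figure D4:**
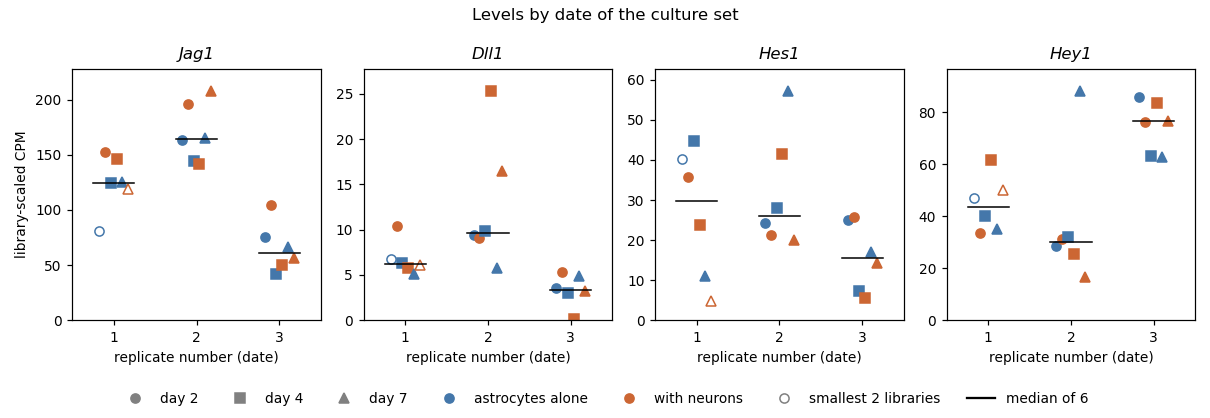
Levels (CPM after TMM scaling, linear axis) grouped by replicate number, which is 1 date in the labels, with 6 libraries each and open symbols for the smallest 2. Jag1 lies at 42.2 to 105 CPM in replicate 3 and at 142 to 208 CPM in replicate 2, and Hey1 at 63.0 to 85.7 CPM in replicate 3.

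Across the 16 larger libraries, Jag1 and Dll1 log2 levels correlated at r = 0.72, Jag1 and Hes1 at 0.68, and Jag1 and Hey1 at −0.68, while Notch1 and Notch2 correlated at 0.57. These libraries share 3 dates, so such values describe them and carry no test. The genes most like Notch1 among 8930 compared were Cabin1 (r = 0.87), Rhbdf1 (0.83) and Zer1 (0.82). Notch2 was most like Cachd1 (0.88), Lrp1 (0.84), an endocytic receptor, and Spata13 (0.83). Notch3 was most like Agrn (0.93), which encodes the matrix protein agrin, Fat4 (0.91), a large cadherin, and Lamc1 (0.88), a laminin chain.
Jag1 was closest to Fzd1 (0.93), a Wnt receptor, Micall2 (0.92) and Tnfrsf1b (0.90), a TNF receptor, and Jag2 to Rgs12 (0.90), Reck (0.82) and Prr12 (0.81). Hes1 was closest to Tpm1 (0.89), a tropomyosin, Dusp1 (0.88), a phosphatase of the immediate early response, and Thy1 (0.86). Hey1 was closest to Aif1l and Prkca (both 0.91).

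The rest of the pathway was looked at in 8 lists of 51 genes, of which 42 were tested and 0 were called by edgeR in any of the comparisons. On day 2, 29 of the 42 had fitted values above 0, with a median log2 fold change of 0.08, and on day 7 19 did, with a median of −0.03. At an unadjusted p under 0.05 there were 1 of 42 on day 2 and 4 of 42 on day 7, against the 2.35% and 9.37% of all tested genes given above.
All 8 genes of the cleavage list, the ADAM proteases and the gamma-secretase subunits, had fitted values above 0 on average over the days, with a median of 0.15 against 0.02 over all tested genes. The share of all tested genes fitted above 0 on average was not counted. Ncstn, a gamma-secretase subunit, had 0.24 (SE 0.22) and Adam17, a protease, 0.24 (SE 0.25), and neither passed the test. Adam17 was fitted at −0.02 on day 2, −0.19 on day 4 and 0.94 on day 7. Its highest day 7 co-culture value, 170.1 CPM, came from the library of 8966485 reads. On single days the cleavage list was less uniform: 6 of its 8 genes were above 0 on day 2, 5 on day 4 and 4 on day 7. Of the ligand ubiquitin ligases 1 of 4 was above 0 on average, and of the tested glycosylation genes 4 of 4, among them Lfng, a Fringe enzyme that modifies Notch, at 0.23 (SE 0.30). Of the nuclear complex 5 of 9 and of the inhibitors 6 of 9 were above 0.

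On day 2 the gene below that level was Dlk1, a Delta-like protein without the usual receptor-binding domain, at 26.9, 3.31 and 2.40 CPM alone and 0.831, 0.716 and 1.98 CPM in co-culture, where the first value is 4 reads. The log2 fold change was −2.81 (SE 1.34, edgeR unadjusted p = 0.0497, adjusted p = 1). On day 7 the genes below it were Adam17, Itch, a ubiquitin ligase that acts on Notch, and Hes6, all fitted higher, and Dner, fitted lower. The first 3 had their highest co-culture value in the library of 8966485 reads, at 170.1 CPM for Adam17, 207 CPM for Itch and 128 CPM for Hes6, against 43.1 to 80.3, 66.0 to 69.8 and 9.66 to 14.5 CPM in the other two.

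Dner, an EGF-repeat membrane protein reported as a Notch ligand, was singled out after its values were seen. On day 7 it stood at 111, 151 and 121 CPM alone and at 28.4, 40.1 and 77.0 CPM in co-culture, with no overlap. Of all tested genes, 5.58% were separated in this direction on day 7. The lowest Dner value, 28.4 CPM, is 169 reads in the library of 8966485 reads. The log2 fold change was −1.39 (SE 0.44, edgeR unadjusted p = 0.00554, adjusted p = 0.468). On day 2 the values overlapped, at 148, 81.4 and 114 CPM alone and 212, 59.8 and 116 CPM in co-culture.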

How the data were processed

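Read counts per gene were deposited by the authors as 1 table. The tools named per the submitters' processing notes are Subread and featureCounts, on build mm9. Versions and strand setting: not given in the sources used here. RNA was depleted of ribosomal RNA and libraries were made with SMARTer kits, per the labels' protocols. Entrez IDs were matched to RefSeq symbols (24191 of 26301), and the 17 correlation columns were not used. In R 4.3.3, edgeR 4.0.16 fitted 1 model with 6 group means to all 18 libraries (TMM, filterByExpr, Benjamini-Hochberg over 16539 genes). Median biological coefficient of variation was 0.569. The procedure was tested on simulated counts. Replicate numbers pair libraries by the date in the labels: deviations correlated at 0.108 to 0.469 within number and day and at −0.386 to 0.0781 between numbers. The edgeR p-values given come from the model without a replicate term, except those for the dates. No 2 libraries of a group agreed within sampling noise. Alternatives were DESeq2 1.42.0, limma 3.58.1 (voom), other scalings and filters, the replicate block, 16 libraries and leaving out replicates. The 10 genes and the lists were chosen with earlier results of these data known. All 10 are named, of each list up to 2 genes with the smallest p on average, and for likeness the 3 highest correlations, for members averaging at least 10 CPM; some of these are not reported here.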

Additional observations from a re-analysis of the deposited data

Results flagged for a closer look

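The fitted response of Notch1 to neurons changed sign between days. The co-culture effect on day 7 minus that on day 2 was −1.10 on the log2 scale, with every pair higher on day 2 and every pair lower on day 7. Notch2 had the same order in its pairs, with a difference of −0.98, and 2.45% of all tested genes had this order. Without the 2 smallest libraries the differences were −0.91 for Notch1 and −0.49 for Notch2. Neither difference passed the edgeR test after adjustment (adjusted p = 0.891 for Notch1 and 0.919 for Notch2).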

How the results depend on the processing

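Under up to 31 alternatives per comparison, 0 of the 10 genes were called in any co-culture or time comparison, and the lowest adjusted p was 0.0672 (Notch1 in co-culture, day 7 against day 2, DESeq2). Of 23 fold changes followed, 18 kept their sign in every alternative. Upper-quartile scaling shifted the all-gene median by at most 0.15 on the log2 scale. With the replicate block, which changed no call among the 10, the Notch1 difference between days 7 and 2 was −1.09. On day 7, Jag2 stood at −0.12 when 16 libraries were fitted with the block, and Hey2 had −1.48 by limma-voom, −1.30 with 16 libraries and −1.53 with 16 libraries and the block. Hes1 on average had 0.0845 by limma-voom. Leaving out replicates or single libraries gave −1.64 to −0.10 for Hes1 on day 7, −0.66 to −0.0959 for Hes1 on average, 0.22 to 0.92 for Jag1 on day 2, −0.0332 to 0.78 for Dll1 on average, −0.31 to 0.13 for Hey1 on average and −1.27 to 2.76 for Hey2 on day 7, lowest when the co-culture library of replicate 1 was dropped. The dates called 2 genes with 16 libraries and 1 to 3 on leaving out libraries, Hey1 joining without any 1 of 4 day 7 libraries and Notch2 without replicate 1 or 2 of astrocytes alone at day 7. Over all genes, against 0 in each comparison as reported, DESeq2 called 22 on day 2, 5 on day 7, 248 in co-culture and 3 alone between days 7 and 2, and 3 in the difference of those days. The block gave 1 on day 7 and 1 in co-culture over time, 16 libraries with the block 14 to 23 in 7 comparisons, and leaving out replicate 2 gave 1 in the difference of days 7 and 2. The causes were not tested.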
